A study of Mus musculus with 25 samples.

Results

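The genes described here are 8 imprinted regulators of growth, Igf2, H19, Dlk1, Mest, Plagl1, Peg3, Cdkn1c and Grb10, picked by gene symbol in the array annotation out of 18194 genes. Of the 8, 7 had at least 1 probe set of their own, and the sole probe set of H19 is annotated to H19 and Mir675 together, so it was followed as a probe set and not counted as a gene. In all, 18 probe sets read these genes. The RNA came from salivary glands. The donors were males of C57BL/6.NOD-Aec1Aec2, a C57BL/6 line that carries the Idd3 and Idd5 regions of the NOD mouse and develops a disease like Sjögren's syndrome. Each sample was the RNA of a single animal, a lobe of submandibular, sublingual and parotid gland without the lymph nodes. There were 5 mice at each of 5 ages set 4 weeks apart, the youngest 4 weeks and the oldest 20 weeks old (25 arrays), and the question followed here is whether these genes declined after 4 weeks. All mice carry the same 2 NOD regions, and the parental C57BL/6J strain was not analysed here, so age and disease stage cannot be told apart.

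Imprinted genes are transcribed from the maternal or the paternal allele alone, according to marks set in the parental germ cells. Many act on growth before and shortly after birth, and in many mouse organs their transcripts decline together during the weeks after birth, as growth slows. Among these genes Igf2 encodes a growth factor that binds the Igf1 and insulin receptors. H19 is a noncoding RNA that neighbours Igf2 and holds the precursor of a microRNA. Dlk1 and Mest encode membrane proteins of fetal tissues, Plagl1 and Peg3 zinc finger proteins, Cdkn1c an inhibitor of cyclin-dependent kinases and Grb10 an adaptor that binds the Igf1 and insulin receptors.

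The microRNA inside H19 is shown because the array cannot separate the 2 annotations of that probe set. Arrays of this kind read long transcripts, so the signal is not a measure of the mature strands below (RefSeq, GRCm38.p6, minus strand, chr7:142577112-142577133 for the 5p and chr7:142577078-142577099 for the 3p strand, 5′ to 3′, with the seed, bases 2 to 8, in capitals). The 2 strands do not share a seed.
mmu-miR-675-5p: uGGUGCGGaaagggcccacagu
mmu-miR-675-3p: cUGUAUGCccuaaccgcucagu

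In the glands of mice older than 4 weeks, 3 of the 7 genes (Cdkn1c, Igf2 and Peg3) were lower and none was higher when all later ages were set against the 4-week mice. The probe set of H19 and Mir675 was lower as well. For Cdkn1c and that probe set the difference lay in 3 of the 5 mice of 4 weeks, whose signals stood far above a narrow band that held nearly all other arrays. Called lower means an adjusted p under 0.05 in limma, with Benjamini-Hochberg adjustment over all 18194 genes, and 402 genes (2.21%) were lower in this comparison. All 7 genes had a log2 fold change below 0, with a median of -0.35, against -0.01 for all genes tested, and 6 of 7 had an unadjusted p under 0.05, as had 18.6% of all genes.

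**Figure D1:**
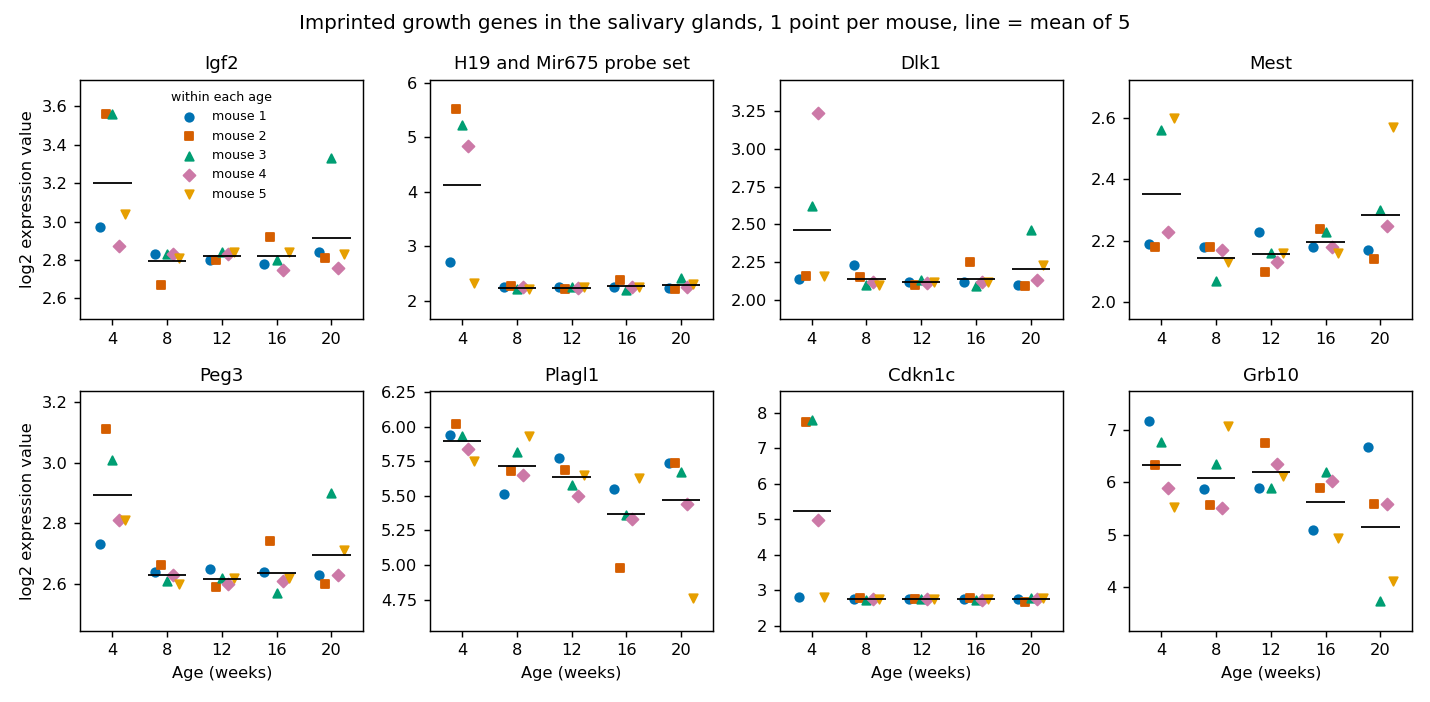
Log2 expression value (vertical axis, a separate range in each panel) against age in weeks (horizontal axis), with 1 point per mouse and a line at the mean of 5 mice. In Cdkn1c and in the probe set of H19 and Mir675 the points of mice 2, 3 and 4 at 4 weeks lie well above all points of the later ages, while Grb10 and Plagl1 overlap between ages. Mouse numbers name the mice within an age and do not link ages.

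Most of these genes were near the lower limit of the array. An expressed probe set here is a probe set whose mean over the 25 arrays was above 3.27, the median over all probe sets, and only Plagl1 and Grb10 had one. Detection calls were not used here, so a value of 2 to 3 may be background, and a fold change against it is a difference in signal that can understate the change in RNA. In bulk tissue, fewer cells of a type and less RNA per cell cannot be told apart. The array of mouse 3 at 20 weeks stood apart: its median correlation with the other arrays of its age was 0.887, against 0.973 to 0.996 for all other arrays, its Gapdh signal was 3.87 log2 units greater toward the 3′ end of the transcript than toward the 5′ end, and its median was 3.64, the highest of the 25 arrays. It was kept, and the calls that turned on it are given with and without it. Markers of the labelled tissue were present: the acinar gene Prol1 averaged 15.44 ± 0.04 and the duct gene Klk1 14.98 ± 0.09 at 4 weeks (log2 value, SD, n = 5). Not all markers were as even among these mice. The SD at 4 weeks was 3.203 for Amy1, 3.337 for Smr3a and 2.473 for Smgc (acinar) and 1.341 for Krt19 (duct). For the remaining acinar and duct markers it was 0.02 to 0.559. Among those, Chrm3 (2.545) and Atp6v1b1 (2.765) had no expressed probe set. A uniform mix of cells in the 4-week samples was therefore not shown.

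Cdkn1c encodes p57Kip2, which halts the cell cycle and is expressed from the maternal allele. Its log2 values in 8-week mice 1 to 5 were 2.76, 2.77, 2.73, 2.74 and 2.74, and the 20 later mice lay between 2.67 and 2.79 with a median of 2.75. In 4-week mice 1 to 5 they were 2.80, 7.74, 7.79, 4.97 and 2.80. Mice 2, 3 and 4 of 4 weeks were thus far above every later mouse, while mice 1 and 5 lay just beside the highest of them. Across later ages the log2 fold change was -2.47 ± 0.54 (SE, limma, adjusted p = 0.00671), 0.18 of the 4-week signal. The fit used 1 spread for all ages, while the SD was 2.487 at 4 weeks and 0.007 to 0.045 at the later ages. The SE and p-values therefore understate the spread of the 4-week mice, which carried the difference. Against 4 weeks alone, Cdkn1c was called lower at 12 weeks (adjusted p = 0.0308) and at 16 weeks (adjusted p = 0.0469), while at 8 weeks (adjusted p = 0.0592) and at 20 weeks (adjusted p = 0.0540) it did not pass. The fold change was -2.47 at all 4 ages, so the calls differ through the threshold and not through the size of the difference. The 2 calls rested on the arrays in the fit. When each of the 25 arrays was left out, the 16-week call remained in 3 fits (without 4-week mouse 1 or 5 or 20-week mouse 3), and the 12-week call was lost in 8 (without 4-week mouse 2, 3 or 4 or any 12-week mouse). The call across later ages remained in all 25. Without 4-week mouse 2 the fold change across later ages was -1.84 (adjusted p = 0.0379) and without mouse 3 it was -1.83 (adjusted p = 0.0410).

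H19 is transcribed from the maternal allele and lies next to Igf2. The probe set shared with Mir675 gave 2.25, 2.26, 2.22, 2.24 and 2.22 in 8-week mice 1 to 5 and between 2.20 and 2.42 in the 20 later mice, with a median of 2.24. In 4-week mice 1 to 5 it gave 2.71, 5.51, 5.22, 4.84 and 2.33. Mouse 1 of 4 weeks was above all later arrays by a small margin, mice 2, 3 and 4 by more than 2 log2 units, and mouse 5 lay within the later range. In the fit of 45101 single probe sets the log2 fold change was -1.87 ± 0.32 for later ages (SE, limma, adjusted p = 0.00156), a comparison in which 1.30% of probe sets were lower. At 8 weeks it was -1.89 ± 0.41 (adjusted p = 0.0250, 0.341% of probe sets lower), and at 12, 16 and 20 weeks it also passed. The call at 8 weeks was lost without any of the 4-week mice 2, 3 and 4 (-1.54, -1.61 and -1.71) and without 8-week mice 3, 4 or 5 (-1.88, -1.89 and -1.88). Here too the spread was shared by all ages, while the SD was 1.488 at 4 weeks and 0.017 to 0.081 later, so the SE understates the 4-week spread.

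Igf2 is read by 2 probe sets, of which 1448152_at carried the difference. As a gene, Igf2 had 2.83, 2.67, 2.83, 2.83 and 2.81 in 8-week mice 1 to 5 and between 2.67 and 3.33 in the 20 later mice, with a median of 2.83, where the highest value belonged to mouse 3 at 20 weeks. In 4-week mice 1 to 5 it had 2.97, 3.56, 3.56, 2.87 and 3.04. Mice 2 and 3 of 4 weeks exceeded all later mice, and 4 of the 5 exceeded those later mice that remain without 20-week mouse 3, whose highest value was 2.92. The log2 fold change of later ages was -0.36 ± 0.09 (SE, limma, adjusted p = 0.0198), and it was -0.27 without 4-week mouse 2 (adjusted p = 0.106) or without 4-week mouse 3 (adjusted p = 0.111). On 1448152_at alone later mice lay between 2.78 and 3.43, against 3.39, 4.53, 4.51, 3.17 and 3.50 in the 4-week mice (log2 fold change -0.73, adjusted p = 0.00746 over single probe sets). The other Igf2 probe set, 1415931_at, was near 2.54 on most arrays and gave 0.00029.

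Peg3, a zinc finger gene expressed from the paternal allele, was called lower in 4 comparisons as a mean of its probe sets and in 0 on the brightest of them. Its log2 values were 2.64, 2.66, 2.61, 2.63 and 2.60 in 8-week mice 1 to 5 and between 2.57 and 2.90 in the 20 later mice, with a median of 2.63. In 4-week mice 1 to 5 they were 2.73, 3.11, 3.01, 2.81 and 2.81. Mice 2 and 3 of 4 weeks were above every later mouse, and without 20-week mouse 3 the highest later value was 2.74, which 4 of the 5 exceeded. The log2 fold change was small, -0.25 ± 0.05 for later ages (SE, limma, adjusted p = 0.00276). It was called at 8 weeks (-0.27, adjusted p = 0.0229), at 12 weeks (-0.28, adjusted p = 0.00897) and at 16 weeks (-0.26, adjusted p = 0.0198), while the fit gave -0.20 at 20 weeks (adjusted p = 0.0923). The gene value averages 5 probe sets, and 2 of them carried the difference: 1433924_at (-0.73, adjusted p = 7.8e-04) and 1417355_at (-0.36, adjusted p = 0.00231), while the other 3 gave between -0.13 and -0.02. The brightest of the 5 in the mean over all arrays, 1417356_at, gave -0.13, and when each gene was read by its brightest probe set Peg3 passed in no comparison, while Igf2 was lower at 8 weeks and Igf2 and Cdkn1c at 12 weeks, at 16 weeks and across later ages. On 1433924_at all later mice lay between 2.41 and 2.65, against 2.79, 3.90, 3.66, 2.73 and 3.08 in the 4-week mice, so on that probe set the groups did not overlap. On 1417355_at 3 of the 5 exceeded all later mice, and on each of the other Peg3 probe sets 0 did. The share of all probe sets without overlap was not counted.

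The promoter of Peg3 is shown because Plagl1, another member of the list, encodes a factor that in mouse binds the palindrome GGGGCCCC and acts on other imprinted genes. Of the 7 genes with their own probe sets, 6 have start sites in the RefSeq promoter table (12 windows of 250 bases before to 50 after the start site), and only the Peg3 window holds these 8 letters, which read the same on both strands. They occur in 354 of 32851 windows (1.08%). The match, at position -201 from the start site, is a description of the sequence and not of binding. The 250 bases before the start site of Peg3 (GRCm38.p6, chr7:6730420-6730669, minus strand, 5′ to 3′, with the palindrome in capitals) read:
Peg3: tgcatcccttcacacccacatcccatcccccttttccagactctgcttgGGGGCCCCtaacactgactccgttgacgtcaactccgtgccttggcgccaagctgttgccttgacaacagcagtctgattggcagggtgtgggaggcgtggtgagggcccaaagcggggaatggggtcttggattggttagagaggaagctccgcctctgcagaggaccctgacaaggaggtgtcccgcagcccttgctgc

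The other 4 genes did not pass in any comparison with 4 weeks. Dlk1, a paternally expressed membrane protein that holds back adipocyte differentiation, had between 2.09 and 2.46 in the 20 later mice (median 2.12), against 2.14, 2.16, 2.62, 3.24 and 2.16 in 4-week mice 1 to 5 (log2 fold change -0.32 ± 0.11 SE, limma, adjusted p = 0.101). Mice 3 and 4 of 4 weeks were above all later mice, without mouse 4 the fold change was -0.12, and the signal lay on 1449939_s_at, which had 3.15 and 4.41 in those mice. The mean log2 value of the leukocyte markers was 4.12, 3.98, 4.84, 5.73 and 5.35 in 4-week mice 1 to 5, highest in the mouse with the most Dlk1, and its part in the difference was not tested.

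Mest, a paternally expressed gene of mesoderm whose protein resembles hydrolases, had between 2.07 and 2.57 in the 20 later mice (median 2.17), against 2.19, 2.18, 2.56, 2.23 and 2.60 in the 4-week mice. Mouse 5 of 4 weeks alone exceeded all later mice, and the log2 fold change was -0.16 ± 0.06 (SE, limma, adjusted p = 0.166). The mice with most Mest at 4 weeks were 3 and 5 and those with most Cdkn1c 2 and 3, so the pairs shared mouse 3 alone.

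Plagl1 and Grb10, the genes with an expressed probe set, differed least between 4 and 8 weeks relative to their spread. Plagl1 averaged 5.90 ± 0.10, 5.72 ± 0.16, 5.64 ± 0.10, 5.37 ± 0.25 and 5.47 ± 0.42 over the 5 ages, youngest first (log2 value, SD, n = 5 each), a log2 fold change of -0.35 ± 0.12 across later ages (SE, limma, adjusted p = 0.0822) and of -0.53 at 16 weeks (adjusted p = 0.0520). Its signal came almost wholly from 1426208_x_at, whose name marks probes that can match other sequences. Later mice lay between 6.05 and 8.52 on it, against 8.46, 8.61, 8.40, 8.25 and 8.07 in the 4-week mice, and 1 of the 5 exceeded all later mice. On 1426208_x_at alone the log2 fold change was -0.69 across later ages (limma, adjusted p = 0.137 over single probe sets) and -1.065 at 16 weeks (adjusted p = 0.0833). The gene value averages it with 1438588_at, which had a mean of 3.43 and gave -0.001 across later ages. Grb10, which curbs growth and is expressed from the maternal allele in most tissues, averaged 6.34 ± 0.66, 6.08 ± 0.65, 6.20 ± 0.36, 5.62 ± 0.57 and 5.14 ± 1.20 over the same ages. The log2 fold change was -1.20 ± 0.46 at 20 weeks (SE, limma, adjusted p = 0.214), where mice 3 and 5 had 3.73 and 4.12 and the other mice 5.58 to 6.68. Without mouse 3, whose array stood apart, it was -0.84 ± 0.44 (adjusted p = 0.27). Of its 3 probe sets only 1425458_a_at was above 3 on any array.

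**Figure D2:**
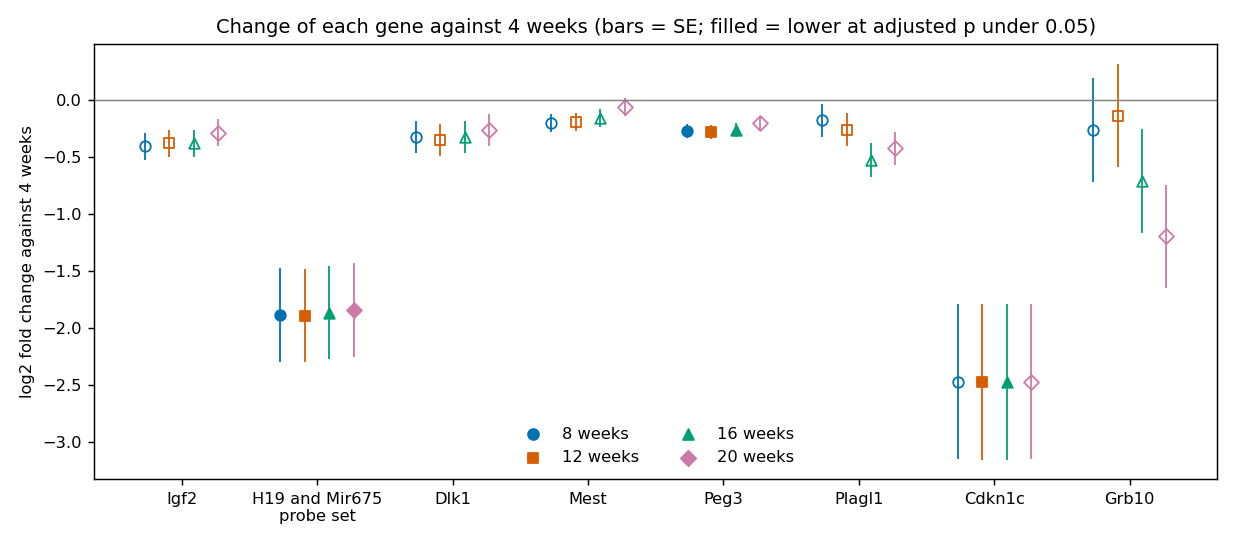
Log2 fold change against 4 weeks (vertical axis) of each gene and of the probe set of H19 and Mir675, at 8, 12, 16 and 20 weeks, with SE bars from limma and filled symbols where the adjusted p was under 0.05. All symbols lie below 0, Cdkn1c is near -2.47 at each age with both filled and open symbols, and only Plagl1 and Grb10 are further from 0 at both 16 and 20 weeks than at 8 weeks.

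Age by age, 1 of the 7 genes was lower at 8 weeks (Peg3), where 0.780% of all genes were lower, 2 at 12 weeks (Peg3 and Cdkn1c, background 1.36%), 2 at 16 weeks (Peg3 and Cdkn1c, background 1.68%) and 0 at 20 weeks (background 1.52%). All 7 had a log2 fold change below 0 at each of these ages, and 5 of 7 had an unadjusted p under 0.05 at each, where the share of all genes was 14.0%, 20.7%, 14.4% and 12.4%, in order of age. The median of the 7 was -0.27, -0.28, -0.38 and -0.29 at 8, 12, 16 and 20 weeks, beside -0.03, -0.03, -0.02 and 0.04 for all genes tested. These comparisons share the 5 mice of 4 weeks and are not separate evidence. Counts moved with single arrays. At 8 weeks 0 genes were called without 4-week mouse 2, 4-week mouse 3, 8-week mouse 3 or 8-week mouse 5, 2 without 4-week mouse 4 or 5, and 3 without 4-week mouse 1 or 20-week mouse 3. At 12 weeks 1 was called without 4-week mouse 2 or 3 or without any single 12-week mouse. At 16 weeks 0 were called without 4-week mouse 2 or 3 or 16-week mouse 3 or 4, 1 without any single mouse of 8 or 12 weeks, 16-week mouse 1 or 2 or 20-week mouse 2 or 4, and 4 without 20-week mouse 3. The count of 2 at 16 weeks did not always hold the same genes: without 16-week mouse 5 or 20-week mouse 1 or 5 it was Plagl1 and Peg3, and without 4-week mouse 4 Igf2 and Peg3. At 20 weeks 2 were called without 4-week mouse 1 and 1 without 4-week mouse 5. Without 20-week mouse 3, 3 genes were also lower at 20 weeks (Igf2, Peg3 and Cdkn1c), and 5 across later ages (Igf2, Dlk1, Plagl1, Peg3 and Cdkn1c). The background grew as well: without that array 483 of 18194 genes were lower at 20 weeks and 979 across later ages, against 276 and 402 with it. At 8 weeks 305 were lower without it and at 16 weeks 588, against 142 and 306 with it. Without 4-week mouse 2 or 3, Peg3 and Cdkn1c remained of the 3 called across later ages.

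After 8 weeks no further decline passed the test. For Igf2, Dlk1, Mest, Peg3 and Cdkn1c the test could hardly show one, since their 8-week means (2.14 to 2.79) were already near background. Plagl1 and Grb10, the genes with an expressed probe set, had -0.225 ± 0.121 and -0.421 ± 0.372 at 12 to 20 weeks against 8 weeks (SE, limma, adjusted p = 0.776 for both). In the mean of 12, 16 and 20 weeks against 8 weeks 0 of 7 genes were lower and 0 higher (background 0.00550% lower), with 0 at an unadjusted p under 0.05 (5.19% of all genes), and 3 of 7 were below 0. At 20 weeks against 12 weeks 0 of 7 passed as well (background 0.709% lower), with 1 at an unadjusted p under 0.05 (16.8% of all genes). This was Grb10 (-1.06 ± 0.46 SE, limma, adjusted p = 0.254), which without 20-week mouse 3 had -0.71 ± 0.44 (unadjusted p = 0.121, adjusted p = 0.644). For any change over the 5 ages, the F-test called 1 of 7, Peg3 (adjusted p = 0.0279, background 4.66%). It called 0 without 4-week mouse 2 or 3, and 2 without 4-week mouse 1 or 5 or 20-week mouse 3 or 5. In the single probe set fit the probe set of H19 and Mir675 had an adjusted p of 0.0264. The B-statistic, the log odds of a trend with age, was above 1.5 for 0 of 7 genes (background 1.92%), and its highest value was 0.05 in the quadratic term of Peg3. The limma F-test gave an unadjusted p under 0.05 for Igf2 (0.0127), Plagl1 (0.0155) and Cdkn1c (0.00414) as well.

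The 4-week mice differed among themselves, and not in the same way for each gene. Mice 2 and 3 were high in Igf2, Peg3, Cdkn1c and the probe set of H19 and Mir675. Mouse 4 was high in Cdkn1c and in that probe set, mice 3 and 4 in Dlk1, and mice 3 and 5 in Mest. Mouse 1 was highest of the 5 in Grb10 (7.17) and in no other gene of the list. Over the 25 arrays, Cdkn1c and the probe set of H19 and Mir675 had a Pearson correlation of 0.97, Igf2 and Peg3 of 0.93, and Igf2 and Cdkn1c of 0.82, while Grb10 had 0.24 with Cdkn1c and -0.08 with Peg3. These correlations rest largely on the few high mice of 4 weeks, and the points share age and array background.

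**Figure D3:**
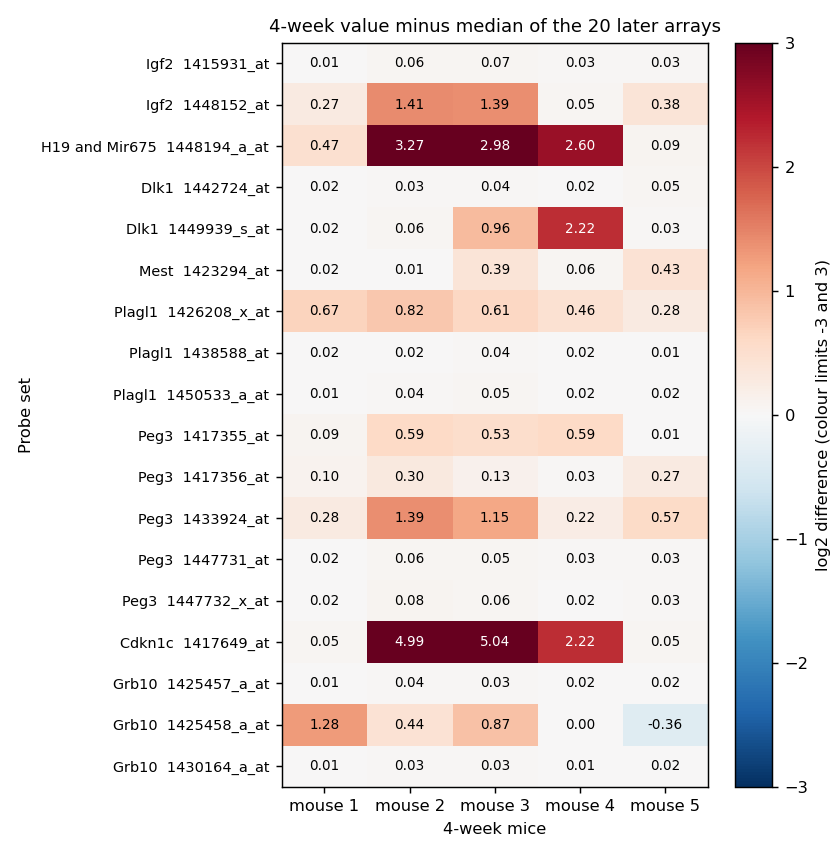
Difference in log2 units between each 4-week mouse (columns) and the median of the 20 later arrays, for the 18 probe sets of the list (rows), with colour limits at -3 and 3. The largest values are 5.04 and 4.99 for Cdkn1c in mice 3 and 2, 9 of the rows hold no value above 0.30, and mice 1 and 5 hold no value above 1.28.

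Other imprinted genes changed in both directions. The counts of this and the following lists stand beside 2.21% of all genes lower and 4.14% higher across later ages. Of 58 other imprinted genes measured (67 listed), 1 was lower across later ages and 6 were higher, 1.72% and 10.3% of the list, with a median log2 fold change of 0.00. Ndn, a paternally expressed growth suppressor known from neurons, was the gene that fell (-0.98 ± 0.15 SE, limma, adjusted p = 3.5e-04), with 6.96 ± 0.39, 6.14, 6.12, 5.55 and 6.11 over the 5 ages, youngest first. The genes that rose were Slc22a18 (0.68, adjusted p = 5.9e-04), Kcnq1 (0.86, adjusted p = 0.00210), Blcap (1.00, adjusted p = 0.00656), Cd81 (0.79, adjusted p = 0.00761), Osbpl5 (1.34, adjusted p = 0.00882) and Cobl (1.03, adjusted p = 0.0355). Slc22a18, a transporter, and Kcnq1, a potassium channel, lie in the domain of Cdkn1c, and Cobl, an actin nucleator, lies beside Grb10. Of 29 measured neighbours in the domains of the listed genes, these 3 rose (10.3%) and 0 fell. That neighbour list was not exhaustive and did not hold Cd81 or Osbpl5. Meg3, the maternally expressed noncoding RNA of the Dlk1 domain, gave 0.13 (adjusted p = 0.909), and Kcnq1ot1, the noncoding RNA that silences Cdkn1c on the paternal allele, 0.04 (adjusted p = 0.960).

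Among the partners of Igf2 in signalling, 4 of 31 were lower across later ages (12.9%) and 1 was higher (3.23%). Igf1, the related growth factor, fell by 0.95 on the log2 scale (SE 0.18, limma, adjusted p = 0.00240). Igfbp5 (-1.20, adjusted p = 1.9e-04) and Igfbp3 (-0.99, adjusted p = 0.00138), binding proteins that hold these factors, fell too, as did Igfbp7 (-0.99, adjusted p = 0.00782). Irs1, which passes the receptor signal on, rose (1.06, adjusted p = 0.0331). The receptors did not pass: Igf2r, which clears Igf2, had 0.24 (adjusted p = 0.915), Igf1r 0.21 (adjusted p = 0.799) and Insr 0.10 (adjusted p = 0.728). Among 10 relatives of the listed genes, Igf1 fell and Grb14, the adaptor most like Grb10, rose (1.52 ± 0.36 SE, adjusted p = 0.0127), while Cdkn1b, which like Cdkn1c inhibits cyclin-dependent kinases, had 0.16 (adjusted p = 0.925). Of 19 genes that keep imprints, Smchd1 rose (0.81, adjusted p = 0.0111) and Ezh2 fell by 0.73 on the log2 scale (adjusted p = 0.0137).

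Part of the markers of dividing cells, fibroblasts and endothelium were also lower after 4 weeks. Of 11 markers of dividing cells 7 fell across later ages, among them Cdk1 (-3.05, adjusted p = 2.7e-10) and Ccnb2 (-2.61, adjusted p = 1.3e-10), which drive entry into mitosis. Their mean log2 value lay between 2.87 and 3.40 in later mice, against 3.96, 4.63, 4.26, 4.52 and 3.98 in 4-week mice 1 to 5. Mice 2, 3 and 4, the mice with most Cdkn1c, were the highest there too. Of 12 fibroblast markers 6 fell, with 5.60 to 6.66 in later mice, against 7.29, 7.26, 7.32, 7.10 and 7.12 in the 4-week mice, and of 10 endothelial markers 5 fell, with 3.77 to 4.01 in later mice, against 4.07, 4.41, 4.34, 4.22 and 4.06. Among the markers that fell, Ccnb2 and the endothelial genes Tie1, Cdh5 and Pecam1 had no expressed probe set. The mean of the fibroblast markers was high in all 5 mice of 4 weeks, including mice 1 and 5, whose Cdkn1c was 2.80. The fibroblast markers Postn (0.93 across later ages, limma, adjusted p = 0.0575) and Mfap5 (0.04, adjusted p = 0.962) went the other way without passing. So did the endothelial gene Flt1 (0.06, limma, adjusted p = 0.881) and Top2a of dividing cells (0.03, adjusted p = 0.966). Muscle markers, of which 0 of 12 passed, lay at 2.89 to 2.91 in the 4-week mice and at 2.78 to 3.18 later. Only 3 of the 12 had an expressed probe set, so a fall of the muscle markers could hardly show. The part of these cells in the lower signals was not tested. The Gapdh difference between 3′ and 5′ ends was 0.49, 0.61, 1.22, 1.66 and 1.68 in 4-week mice 1 to 5, and its part in the lower signals was not tested.

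**Figure D4:**
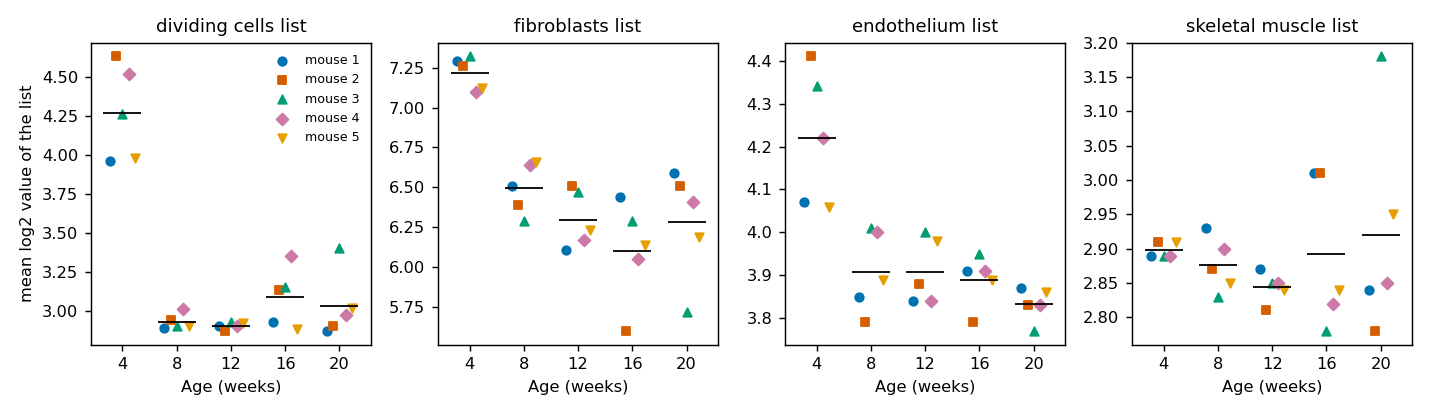
Mean log2 value of the markers of dividing cells, fibroblasts, endothelium and skeletal muscle (vertical axes, a separate range in each panel) against age in weeks, with 1 point per mouse and a line at the mean of 5. The 4-week points of the first 3 lists lie above all later points, and those of muscle lie within the later range. Of the 12 muscle markers 3 had an expressed probe set.

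The genes whose course over the 25 arrays was most like the mean of Igf2, Peg3 and Cdkn1c were Col11a1 (Pearson r = 0.957), Ptn (0.902), Racgap1 (0.897), Cenpa (0.896), Bex1 (0.895), Cdca3 (0.888), Reep6 (0.887), Gucy2c (0.874), Lnx2 (0.872) and Prc1 (0.870), among genes with a mean above the median probe set (3.27). The log2 values in that mean were not scaled to a common spread, so Cdkn1c weighed most in it. The SD of Cdkn1c at 4 weeks was 2.49, against 0.34 for Igf2 and 0.16 for Peg3. In 5 of the 10 genes (Col11a1, Racgap1, Bex1, Cdca3 and Reep6) the mean of the later mice was below 3.27, so they entered through their 4-week signal and a course like that of the listed genes was partly built in by the filter. Col11a1, a chain of the fibrillar collagen of cartilage, had 3.13, 5.73, 6.15, 4.76 and 3.19 in 4-week mice 1 to 5, high in the same mice as Cdkn1c, and 4.41 in mouse 3 at 20 weeks. Ptn, a secreted growth factor, had 4.22, 5.20, 5.32, 5.20 and 4.28. Cenpa, Racgap1, Cdca3 and Prc1 act in cell division. The lowest correlations were those of Eif2s3y (-0.878), Cytip (-0.833), Sp110 (-0.833), Tac1 (-0.831) and Synpo2 (-0.826). Tac1, the precursor of substance P, had 5.51, 4.21, 4.51, 4.29 and 5.33 in the 4-week mice, lowest in mice 2, 3 and 4. Taken singly, the gene most like Igf2 was Cd300lg (0.880), Dlk1 Ube2u (0.948), Mest Gper1 (0.795), Plagl1 Dusp4 (0.852), Peg3 Aurkb (0.923), Cdkn1c Col11a1 (0.939), Grb10 Slc7a5 (0.839) and the probe set of H19 and Mir675 Reep6 (0.953). All these values describe 25 arrays that share age and array background.

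**Figure D5:**
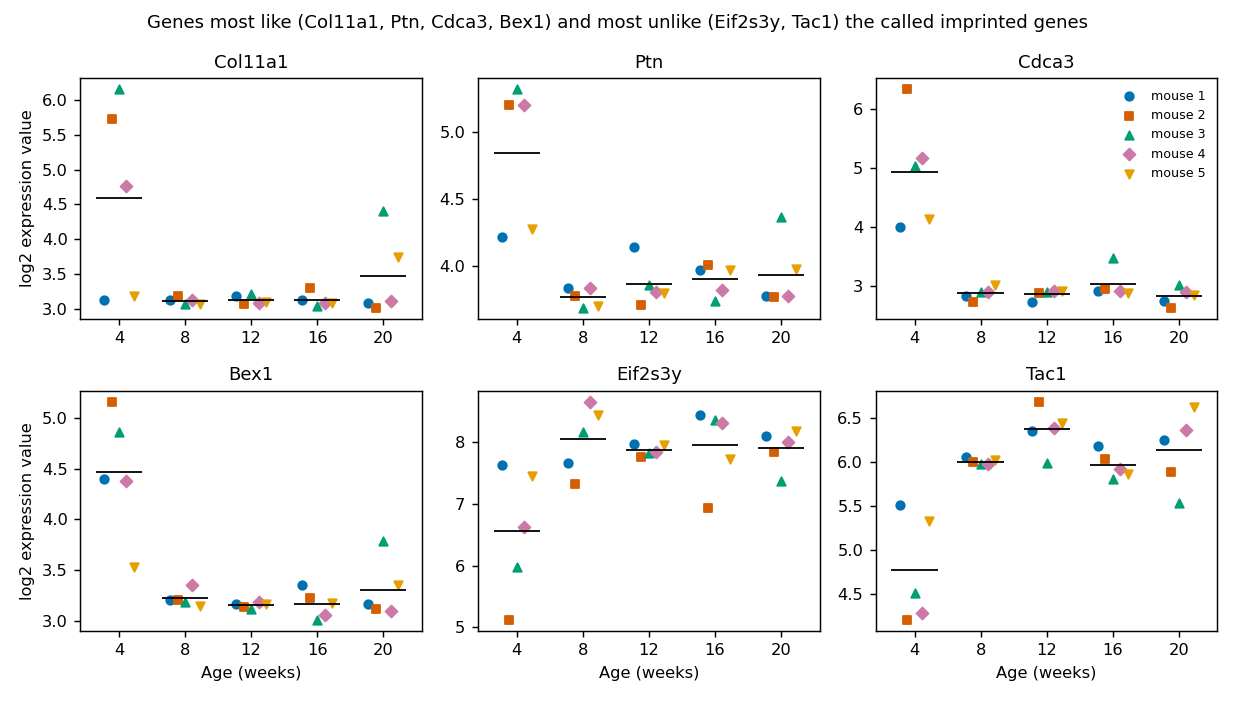
Log2 expression value (vertical axes, a separate range in each panel) against age in weeks for the genes most like (Col11a1, Ptn, Cdca3, Bex1) and most unlike (Eif2s3y, Tac1) the mean of Igf2, Peg3 and Cdkn1c, with 1 point per mouse and a line at the mean of 5. Mice 2, 3 and 4 at 4 weeks are highest in Col11a1, Ptn and Cdca3 and lowest in Eif2s3y and Tac1. Cdkn1c weighs most in the mean of Igf2, Peg3 and Cdkn1c.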

How the data were processed

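RNA of 25 glands had been hybridized to Affymetrix GeneChip mouse genome arrays, with 1 array per mouse. The authors deposited log2 values, 1 per probe set and array (45101 probe sets). The methods name GCRMA and the submitters' processing notes RMA, with the version of neither given in the sources used here. Values (0.13 to 16.94, array medians 3.17 to 3.64) were used as deposited. Both methods estimate a background, so low signals gather in a narrow band and their fold changes are compressed. Arrays have no read depth, so precision depends on how far a signal stands over background and on the 5 mice of each age.

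Of 35890 annotated probe sets, 34958 with a single gene symbol were used, and 932 with several symbols and 9211 not listed were left out. The probe set of H19 and Mir675 was tested among single probe sets only. Gene IDs of 34754 matched the RefSeq gene table. A gene is the mean of its probe sets with a mean above 3.27, or of all where there is none (18194 genes). All arrays were fitted in limma 3.58.1 (R 4.3.3) with age as a factor and no covariate, with Benjamini-Hochberg adjustment over all genes for each comparison and a threshold of 0.05. Polynomials of age gave the B-statistic, with the threshold of 1.5 from the methods. The fits were tested on simulated data. Tables, sequences and figures were made with Python 3.11.15, pandas 2.3.3, numpy 2.4.6 and matplotlib 3.10.9. Sequences come from RefSeq (GRCm38.p6).

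The listed genes, the other gene lists and the tests were chosen with earlier results of these data known. The text names every listed gene, up to 4 genes of each list by adjusted p, imprinted genes of the domains, and the genes of highest and lowest correlation with the called genes. The receptors Igf1r, Igf2r and Insr, and Irs1, Cdkn1b, Cd81, Osbpl5, Amy1, Smr3a, Krt19, Postn and Mfap5, were added after their values were seen. Chrm3, Top2a and Flt1 were added in the same way. Fibroblast, endothelial, dividing cell, leukocyte, adipocyte, muscle, Schwann, acinar and duct markers were scored as means of log2 values. Alternatives were averaging all probe sets, quantile normalization, the brightest probe set, genes above the median alone, array weights, a trend and robust prior, a replicate block, only the 2 ages compared, a prior share of 0.05, probe sets tested singly and leaving out each array. Leaving out the 3 arrays of lowest correlation was added after seeing the data. Each age held 5 mice from more than 1 litter, per the methods, and litters are not given in the labels.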

Additional observations from a re-analysis of the deposited data

Results flagged for a closer look

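Of 40 groups of 5 mice (7 genes and the probe set of H19 and Mir675 at 5 ages), 4 held a mouse far from the other 4, where chance alone gives about 1 in 20. At 16 weeks mouse 2 had 2.38 on the probe set of H19 and Mir675, with the nearest other mouse at 2.25, and 2.25 in Dlk1, with the nearest at 2.12. At 20 weeks mouse 3, whose array stood apart in general, had 3.33 in Igf2, with the nearest at 2.84. At 8 weeks mouse 2 had 2.67 in Igf2, with the nearest at 2.81, within a range of 0.16. The 4-week values of Cdkn1c and H19 did not stand out in this sense, since 3 of the 5 mice were high.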

How the results depend on the processing

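Of the 7 genes, the number lower at 8 weeks was 1, and 0 with only genes above the median (which leaves Plagl1 and Grb10 alone) or only the 2 ages compared, 2 with quantile normalization, 4 with array weights and 4 without the 3 arrays of lowest correlation, with 0 to 3 when each array was left out. At 12 weeks it was 2, and 0 with only genes above the median, 6 with array weights and 5 without the 3 arrays, with 1 to 3 when each array was left out (1 without 4-week mouse 2 or 3 or any 12-week mouse). At 16 weeks it was 2, and 1 with only genes above the median, 4 with quantile normalization, 5 with array weights, 4 without the 3 arrays and 0 with only the 2 ages, with 0 to 4 when each array was left out. At 20 weeks it was 0, and 4 with quantile normalization, 5 with array weights and 3 without the 3 arrays, with 0 to 3 when each array was left out. Across later ages it was 3, and 0 with only genes above the median, 6 with array weights and 6 without the 3 arrays, with 2 to 5 when each array was left out. The F-test called 1, and 0 with the brightest probe set or only genes above the median, 5 with array weights and 4 without the 3 arrays, with 0 to 2 when each array was left out. The B-statistic called 0, and 1 with quantile normalization, array weights or a prior share of 0.05. With array weights 6266 of 18194 genes were lower across later ages, and without the 3 arrays 6851, so the larger counts stand against a larger background. With quantile normalization 321 genes were lower at 8 weeks, 619 at 16 weeks and 697 at 20 weeks, against 142, 306 and 276 in the main fit. The replicate block gave 1 at 16 weeks and 3 at 12 weeks. Deviations of same-numbered mice had a median correlation of -0.04, so numbers do not link ages. On 1 probe set each, the fold change of Igf2 (0.00029 on 1415931_at) and of Dlk1 (0.00587 on 1442724_at) turned from below to above 0. The cause of these differences was not tested. Signal near background limits all genes but Plagl1 and Grb10, and no change of their RNA below that level could be measured.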

Other observations

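Genes of secretory cells changed over the same ages. Smgc, a salivary protein gene of young submandibular glands, fell across later ages (log2 fold change -3.44 ± 0.75 SE, limma, adjusted p = 0.00667), with 10.9 ± 2.47, 7.83, 7.96, 6.91 and 7.24 over the 5 ages, youngest first (mean log2 value, SD at 4 weeks, n = 5 each), and it was the sole acinar marker of 10 to pass. Among 7 duct markers Klk1 fell by 0.32 on the log2 scale (adjusted p = 1.6e-04) and Cftr, a chloride channel, rose (0.89, adjusted p = 0.00985). Of 11 leukocyte, 8 adipocyte and 5 Schwann cell markers measured, 0 passed across later ages. At 20 weeks against 12 weeks 1 of the 8 adipocyte markers was lower (12.5%, background 0.709%). The mean log2 value of the leukocyte markers differed between mice of 1 age, with 4.53, 4.15, 7.10, 7.11 and 4.26 in 16-week mice 1 to 5.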
